A study of Homo sapiens with 12 samples.

Results

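The genes described here are 9 proteases, protease inhibitors and related proteins, taken by name from 27130 genes in a deposited RNA-seq count table: the serpins SERPINE2, SERPINB9 and SERPINH1, the plasminogen activators PLAT and PLAU, the urokinase receptor PLAUR, the protease MMP9, and the metalloproteinase inhibitors TIMP1 and TIMP3. They were selected on differences in read counts between the groups of these same libraries, already in view when the names were listed, so the number of them that differs is a description and no support is drawn from it. Adjusted p-values come from a fit over all tested genes, and for these 9 they set a difference against the spread between libraries without being independent evidence of it. All 9 passed the filter on low counts that left 15437 genes for testing.

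The RNA came from H1 (WA01), an established human embryonic stem cell line, and poly(A) RNA was sequenced in 12 libraries. Each of 4 groups had 3 libraries: wild type (WT), ZNF263 homozygous knockout (KO), ZNF263 homozygous knockout with ZIC2 overexpression (KO+ZIC2), and ZNF263 overexpression (OE). The names of the WT and KO libraries also carry the tag vec. ZNF263 and ZIC2 are zinc finger transcription factors, and the study asked what ZNF263 does in the regulation of pluripotency and how ZIC2 takes part. Not given in the sources used here are the promoter of each transgene, the edit made in ZNF263, whether the KO cells were 1 clone, and whether replicate libraries were separate cultures. A p-value here therefore covers the spread between libraries alone, which may be technical.

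Plasminogen is an inactive protease that is cut to active plasmin by either of its activators, tPA (encoded by PLAT) and uPA (PLAU). uPA works at the cell surface, where the receptor uPAR (PLAUR) holds it, and serpins trap the activators by forming a covalent complex with them. Plasmin cleaves matrix proteins and can activate matrix metalloproteinases (MMPs) such as MMP9, which the TIMPs inhibit in turn. SERPINB9 and SERPINH1 share the serpin fold but act inside the cell.

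Total counts ran from 17175183 to 21804410 per library, except KO replicate 1 with 43464609. The ZNF263 message was at 39.2 ± 1.35 CPM (counts scaled to library size, after TMM scaling) in WT (SD, n = 3) and at 31.1 ± 0.128 in the libraries labelled KO, a log2 difference of -0.33 (SE 0.07, adjusted p = 0.000302). ZNF263 was higher by 2.61 in OE than in WT, and ZIC2 was higher by 3.71 in KO+ZIC2 than in KO, both on the log2 scale. The ZIC2 message was at 208.5 ± 3.74 CPM in WT, 156.1 ± 3.81 in KO, 2040.5 ± 175 in KO+ZIC2 and 212.0 ± 4.67 in OE (SD, n = 3). It was thus lower in KO than in WT, and in KO+ZIC2 it was far above WT. Reads of the ZNF263 message thus persisted in the libraries labelled KO, and RNA counts do not show whether the protein was lost. All 10 markers of pluripotent stem cells were above 1 CPM in every group. Their sum was 7921 to 7980 CPM in WT, 8482 to 8633 in KO, 8122 to 8255 in KO+ZIC2 and 8220 to 8334 in OE. In KO against WT 6 of the 10 were higher and 1 lower at an adjusted p under 0.05 by edgeR, beside 20.0% and 18.5% of all tested genes. In these bulk samples, fewer cells of a type and less RNA per cell cannot be told apart.

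CPM divided by exon length in kilobases (RPKM) allow the genes to be ordered by level. In WT, SERPINH1 stood at 220 ± 1.01 RPKM (SD, n = 3), TIMP1 at 27.5 ± 3.25, SERPINE2 at 21.0 ± 0.828, SERPINB9 at 6.78 ± 0.648 and PLAU at 5.60 ± 0.142. PLAT followed at 4.22 ± 0.0142 RPKM, MMP9 at 3.28 ± 0.393, PLAUR at 2.98 ± 0.492 and TIMP3 at 1.99 ± 0.0949. Among neighbours in this order, only the libraries of MMP9 and PLAUR overlapped in WT. SERPINH1, the collagen chaperone of the endoplasmic reticulum, was thus the most abundant of the 9 messages per length.

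**Figure D1:**
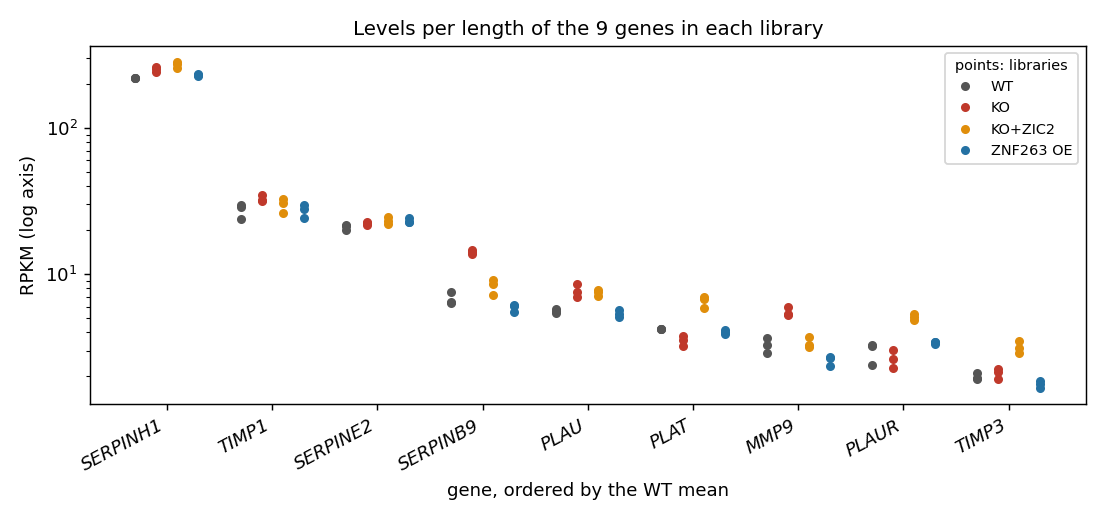
Level of the 9 genes in RPKM (log axis) in each of the 12 libraries, with genes ordered by their WT mean and 1 point per library. SERPINH1 is highest in every group at a WT mean of 220 RPKM, and MMP9 and PLAUR overlap in WT.

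The first comparison, KO against WT, asked which of these genes differ when ZNF263 is edited. SERPINB9, MMP9 and PLAU rose, by 2.11, 1.67 and 1.37 times, SERPINH1 and TIMP1 rose by 1.14 and 1.19 times, and PLAT fell to 0.848 of its WT level. SERPINE2, PLAUR and TIMP3 were not called. Calls are at a Benjamini-Hochberg adjusted p under 0.05 from edgeR's quasi-likelihood test over all tested genes. In this comparison 38.6% of all tested genes were called, 20.0% higher and 18.5% lower, against 5 higher and 1 lower of the 9. The median log2 fold change was 0.19 over the 9 genes and -0.01 over all genes tested. The KO and WT libraries did not overlap for 6 of the 9 genes and for 46.7% of all tested genes.

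SERPINB9 encodes an intracellular serpin that inhibits the cytotoxic protease granzyme B; it lies at chr6:2887500-2903546 on the minus strand (hg19). Its level was 31.2, 27.0 and 26.2 CPM in the 3 WT libraries and 61.1, 59.1 and 56.8 CPM in the KO libraries. It was 29.8, 37.8 and 35.7 CPM in KO+ZIC2 and 25.1, 22.9 and 25.4 CPM in OE. The 3 KO libraries were the highest of the 12 and overlapped no other group, whereas KO+ZIC2 overlapped WT in 1 library. The KO log2 fold change against WT was 1.08 (SE 0.07, adjusted p = 8.28e-11). The antisense locus LOC101927730 shares 139 exon bases with SERPINB9 and had 28 counts in all libraries together, against 9877 for SERPINB9, and no source used here gives the strand setting of the counting.

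MMP9, or gelatinase B, degrades denatured collagens and basement membrane collagen IV, and lies at chr20:44637547-44645200 on the plus strand. It was at 8.61, 6.77 and 7.62 CPM in WT and at 12.4, 13.9 and 12.3 CPM in KO. In KO+ZIC2 it was at 7.45, 7.62 and 8.67 CPM, and in OE at 6.22, 6.37 and 5.54 CPM. MMP9 thus had the same order as SERPINB9: the KO libraries stood highest with no overlap, KO+ZIC2 lay within the range of WT apart from 1 library just above it, and OE lay below WT. The log2 ratio of KO to WT was 0.74 (SE 0.10, adjusted p = 2.52e-06), and 0.57 after correction for GC content and length. Macrophages and other leukocytes are a known source of MMP9: the 6 leukocyte markers PTPRC, CD68, CD14, ITGAM, CSF1R and LYZ summed to 1.96 to 2.51 CPM in WT and 2.21 to 3.12 CPM in KO, with 5 of the 6 under 1 CPM in each group.

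PLAU encodes uPA and lies at chr10:75670859-75677258 on the plus strand. Its level was 15.1, 14.7 and 15.5 CPM in WT, 20.3, 23.0 and 18.9 in KO, 20.9, 19.2 and 20.3 in KO+ZIC2 and 13.6, 15.4 and 14.3 in OE. All 6 libraries that carry the knockout were above all 6 that do not. The log2 fold change was 0.45 (SE 0.07, adjusted p = 4.70e-05) in KO against WT. C10orf55, which shares 773 exon bases with PLAU on the opposite strand, had 64 counts in all libraries together, against 4527 for PLAU.

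PLAT, the gene of tPA at chr8:42032236-42065242 on the minus strand, was at 13.6, 13.5 and 13.6 CPM in WT and at 12.1, 10.5 and 11.5 CPM in KO. The KO libraries lay below all WT libraries, and the log2 ratio was -0.24 (SE 0.08, adjusted p = 0.0227). This call was lost with DESeq2 (adjusted p = 0.0631), after GC and length correction (0.0543), and without WT replicate 3 or KO replicate 2 (at most 0.0779). So in KO the estimates for the messages of the activators uPA and tPA had opposite signs, though the tPA call depended on the settings above.

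SERPINH1 lies at chr11:75273101-75283849 on the plus strand and was at 510, 507 and 512 CPM in WT and at 560, 601 and 581 CPM in KO. The groups did not overlap, and the log2 fold change was 0.19 (SE 0.04, adjusted p = 0.000285). With GC and length correction it was 0.07 (adjusted p = 0.0441). TIMP1, an inhibitor of MMP9 and other MMPs at chrX:47441690-47446190 on the plus strand inside an opposite-strand gene, SYN1, was at 26.4, 21.8 and 27.3 CPM in WT and at 28.8, 32.1 and 29.3 CPM in KO. Its KO libraries were all above WT, at a log2 ratio of 0.25 (SE 0.08, adjusted p = 0.0234). For TIMP1 the call was lost after GC and length correction (log2 fold change 0.04, adjusted p = 0.673) and without WT replicate 2 (0.15, adjusted p = 0.205).

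For the 3 genes not called in KO, the intervals bound the difference. SERPINE2, the serpin protease nexin-1 that inhibits thrombin, uPA and tPA, lies at chr2:224839765-224904036 on the minus strand. It was at 64.7, 66.2 and 61.3 CPM in WT and at 68.1, 69.8 and 66.1 CPM in KO, a log2 difference of 0.09 with a 95% interval from -0.02 to 0.19 (adjusted p = 0.178). SERPINE2 was called with GC and length correction, at 0.18 (adjusted p = 0.00222). For PLAUR the interval ran from -0.44 to 0.07 (adjusted p = 0.248; log2 difference -0.31 with GC and length correction, also not called), and for TIMP3 from -0.09 to 0.26 (adjusted p = 0.480), and in all 3 genes the KO and WT libraries overlapped.

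**Figure D2:**
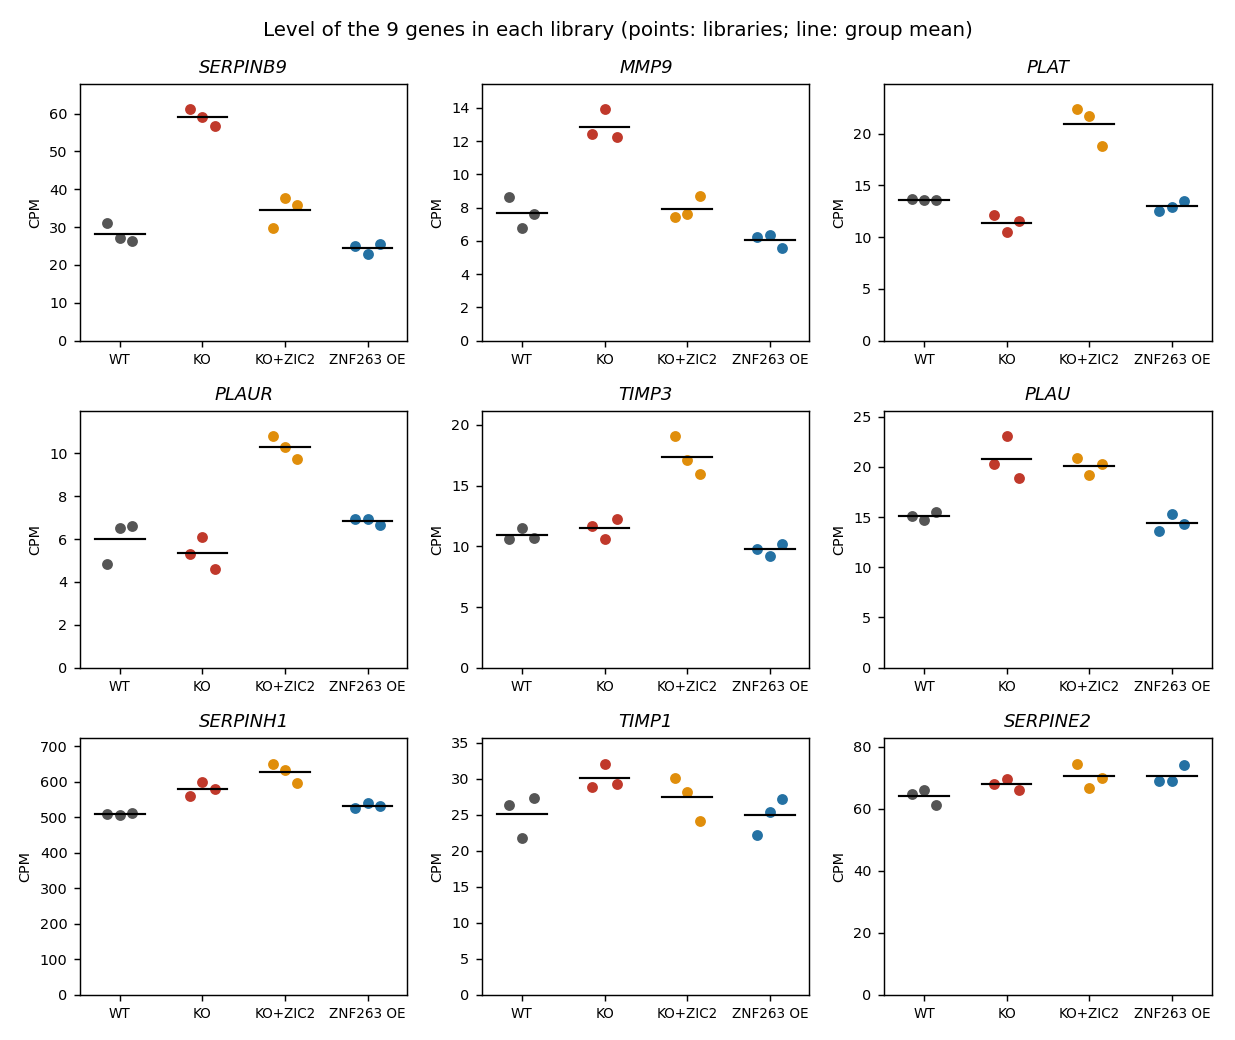
Level of each of the 9 genes in CPM (linear axes from 0) in the 12 libraries, grouped as WT, KO, KO+ZIC2 and ZNF263 OE, with points for libraries and a line for the group mean. SERPINB9 and MMP9 are highest in KO, PLAT, PLAUR and TIMP3 are highest in KO+ZIC2, and PLAU is high in both KO groups.

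KO+ZIC2 against KO addresses what extra ZIC2 does in knockout cells. PLAT, PLAUR and TIMP3 rose, by 1.82, 1.94 and 1.51 times, while SERPINB9 and MMP9 fell to 0.581 and 0.617 of the KO level. The other 4 genes were not called. Of all tested genes 8.34% were called, 4.99% higher and 3.35% lower, against 3 higher and 2 lower of the 9. Over all genes 771 were higher and 517 lower, a split that turned to 935 higher and 1145 lower with GC and length correction. The median log2 fold change of the 9 genes was 0.05, beside -0.0011 over all tested genes. The KO+ZIC2 and KO libraries did not overlap for 5 of the 9 genes and for 21.8% of all tested genes.

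PLAT was at 22.3, 21.7 and 18.8 CPM in the 3 KO+ZIC2 libraries, all above the 9 libraries of the other groups. Its log2 fold change against KO was 0.87 (SE 0.08, adjusted p = 2.77e-08). PLAUR, at chr19:44150247-44174498 on the minus strand, was at 4.85, 6.51 and 6.62 CPM in WT, at 5.29, 6.11 and 4.62 in KO, at 10.8, 10.3 and 9.72 in KO+ZIC2 and at 6.93, 6.93 and 6.67 in OE. The KO+ZIC2 libraries were again the highest 3 of the 12, while KO and WT overlapped. The log2 fold change of PLAUR against KO was 0.95 (SE 0.11, adjusted p = 2.07e-06).

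TIMP3, the TIMP that binds to the extracellular matrix, lies at chr22:33196802-33259028 on the plus strand, inside the opposite-strand gene SYN3 with no shared exon base. It was at 10.6, 11.5 and 10.7 CPM in WT, at 11.7, 10.6 and 12.3 in KO, at 19.0, 17.1 and 16.0 in KO+ZIC2 and at 9.82, 9.20 and 10.2 in OE. The KO+ZIC2 libraries overlapped no other group, and the log2 fold change against KO was 0.59 (SE 0.08, adjusted p = 1.59e-05). PLAT, PLAUR and TIMP3 were thus high in KO+ZIC2 without having been high in KO.

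SERPINB9 and MMP9 moved the other way. Against KO, SERPINB9 was at -0.78 on the log2 scale (SE 0.07, adjusted p = 3.30e-08) and MMP9 at -0.70 (SE 0.10, adjusted p = 2.12e-05). For both the KO+ZIC2 and KO libraries did not overlap. The 5 calls held under every alternative run for this comparison, the omission of any 1 library included. For PLAU the difference was -0.04 with a 95% interval from -0.18 to 0.11 (adjusted p = 0.845), for TIMP1 -0.12 from -0.29 to 0.05 (0.479), and for SERPINE2 0.05 from -0.05 to 0.15 (0.623). TIMP1 was at 30.0, 28.1 and 24.1 CPM in KO+ZIC2 and overlapped both KO and WT. SERPINH1, at 652, 635 and 597 CPM in KO+ZIC2, had a difference of 0.11 (adjusted p = 0.0538) and was called with GC and length correction (0.08, adjusted p = 0.0223) and without KO replicate 2 or KO+ZIC2 replicate 3 (lowest adjusted p = 0.00737).

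Markers of fibroblasts, which make PLAU, TIMP1, TIMP3 and SERPINH1, differed between these groups in sum, though not all in the same direction. The 8 listed markers summed to 504 to 516 CPM in WT, 554 to 599 in KO, 635 to 685 in KO+ZIC2 and 507 to 519 in OE. COL1A1 had a mean of 69.2 CPM in WT, 111 in KO, 211 in KO+ZIC2 and 64.9 in OE. THY1, at 337, 344, 301 and 350 CPM in the same order, was lower in KO+ZIC2 than in KO. Of 5 that were tested, 3 were higher in KO than in WT, and 2 were higher and 1 lower in KO+ZIC2 than in KO. Over all tested genes, 20.0% were called higher in KO than in WT, and 4.99% higher and 3.35% lower in KO+ZIC2 than in KO. COL3A1, LUM and DCN were each under 1 CPM in every group, DCN was at 0 in WT and OE, and LUM was at 0 in KO+ZIC2 and OE. The 6 markers of extraembryonic and definitive endoderm summed to 14.1 to 16.7 CPM in WT and 12.9 to 14.4 in OE. Their sum was 21.1 to 23.9 CPM in KO and 19.3 to 23.1 in KO+ZIC2. SOX17, GATA4 and GATA6 were each under 1 CPM in every group. SOX17 had 0 counts in WT and 1 count in each other group. Endothelial cells are a known source of tPA, and their 5 markers summed to 162 to 171 CPM in WT, 144 to 165 in KO, 143 to 154 in KO+ZIC2 and 173 to 178 in OE. KDR held most of that sum, with a mean of 99.2 CPM in KO and 84.3 in KO+ZIC2, whereas the means of the other 4 were higher in KO+ZIC2 than in KO: CDH5 at 2.44 against 0.51, VWF at 2.98 against 0.86, PECAM1 at 0.25 against 0.066 and TEK at 60.1 against 54.0 CPM. Of 4 tested endothelial markers, 2 were called higher and 1 lower in KO+ZIC2 against KO, and 3 higher and 1 lower in KO+ZIC2 against WT. Against WT, 20.3% of all tested genes were called higher in KO+ZIC2 and 17.3% lower. The leukocyte markers, of cells that carry uPAR, summed to 2.87 to 4.15 CPM in KO+ZIC2, and 6 trophoblast markers to 5.14 to 5.44 in WT, 5.66 to 7.23 in KO, 7.09 to 8.41 in KO+ZIC2 and 7.37 to 7.85 in OE. The part of these marker lists in the values above was not tested.

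The promoter sequences of 3 genes are shown because SERPINB9 had the largest KO response and PLAUR and TIMP3 were among the genes that rose with ZIC2. Each is the 250 bases before the RefSeq start of the gene, 5′ to 3′ along its own strand, in build GRCh38.p14, a later build than the hg19 of the counts. Capitals mark matches on either strand to GGGAGGA (a core of the ZNF263 motif), CCTGCTG (a core of the ZIC motif) or TGANTCA (the AP-1 motif, long known from regulation of plasminogen activator and MMP genes); where motifs share bases the capitals join. The coordinates are chr6:2903310-2903559 minus for SERPINB9, chr19:43670170-43670419 minus for PLAUR and chr22:32801455-32801704 plus for TIMP3.
SERPINB9: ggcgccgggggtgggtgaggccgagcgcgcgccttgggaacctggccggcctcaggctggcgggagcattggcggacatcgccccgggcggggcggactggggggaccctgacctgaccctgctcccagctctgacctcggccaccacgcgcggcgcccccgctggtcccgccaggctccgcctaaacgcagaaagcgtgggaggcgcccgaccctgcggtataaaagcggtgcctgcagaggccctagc
PLAUR: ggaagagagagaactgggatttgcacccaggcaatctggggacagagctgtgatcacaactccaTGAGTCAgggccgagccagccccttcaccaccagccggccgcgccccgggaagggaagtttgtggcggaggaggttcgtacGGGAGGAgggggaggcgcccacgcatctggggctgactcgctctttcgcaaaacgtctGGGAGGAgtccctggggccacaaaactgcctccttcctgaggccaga
TIMP3: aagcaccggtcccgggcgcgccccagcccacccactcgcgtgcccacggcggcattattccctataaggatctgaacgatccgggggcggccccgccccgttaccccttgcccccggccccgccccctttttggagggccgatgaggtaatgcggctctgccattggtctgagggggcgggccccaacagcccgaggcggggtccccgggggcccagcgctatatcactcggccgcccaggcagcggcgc
PLAUR held GGGAGGA starting 105 and 47 bases before the start and TGANTCA 186 bases before it, while the SERPINB9 and TIMP3 windows held none of the 3 motifs. PLAUR held no CCTGCTG. Among windows not shown, a PLAU window held GGGAGGA starting 224 bases before its start, and those of SERPINE2, SERPINH1 and TIMP1 held none of the 3 motifs. No window is reported here for PLAT or MMP9, so neither gene is covered by these statements. Over 35116 promoter windows of the same length, 16.0% held GGGAGGA, 8.48% CCTGCTG and 6.57% TGANTCA. A match is a run of letters and was not tested as a binding site.

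KO+ZIC2 against WT tests directly whether knockout cells with ZIC2 differed from WT. For 7 of the 9 genes they did, all higher, beside 37.6% of all tested genes called, 20.3% higher and 17.3% lower. Of these, PLAUR, TIMP3 and SERPINE2 had not been called in KO against WT, and PLAT had been lower there. The KO+ZIC2 and WT libraries did not overlap for 6 of the 9 genes and for 47.3% of all tested genes. MMP9 was not called, at a log2 difference of 0.04 with a 95% interval from -0.18 to 0.27 (adjusted p = 0.784), and TIMP1 was at 0.13 from -0.06 to 0.31 (0.281). SERPINB9 was higher by 0.29 (95% interval 0.13 to 0.45, adjusted p = 0.00478) although its libraries overlapped WT.

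PLAUR had the largest of these differences, 0.77 (SE 0.12, adjusted p = 1.73e-05), followed by TIMP3 at 0.67 (adjusted p = 1.95e-06) and PLAT at 0.63 (adjusted p = 1.67e-06). PLAU was higher by 0.42 (adjusted p = 0.000212) and SERPINH1 by 0.30 (adjusted p = 1.16e-06), or 0.15 with GC and length correction. PLAT was called in both comparisons with WT with opposite signs, lower in KO and higher in KO+ZIC2, though its KO call was lost under several alternatives. PLAUR also had a negative estimate in KO against WT, which was not called. SERPINE2, at 74.6, 66.7 and 70.1 CPM in KO+ZIC2, was higher by 0.14 (adjusted p = 0.0326), a call lost with DESeq2 (0.0790), with no filter on low counts (0.0705) and without WT replicate 1 or 3 or KO+ZIC2 replicate 1 or 3 (at most 0.199). With GC and length correction SERPINE2 was higher by 0.24 (adjusted p = 0.000180).

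**Figure D3:**
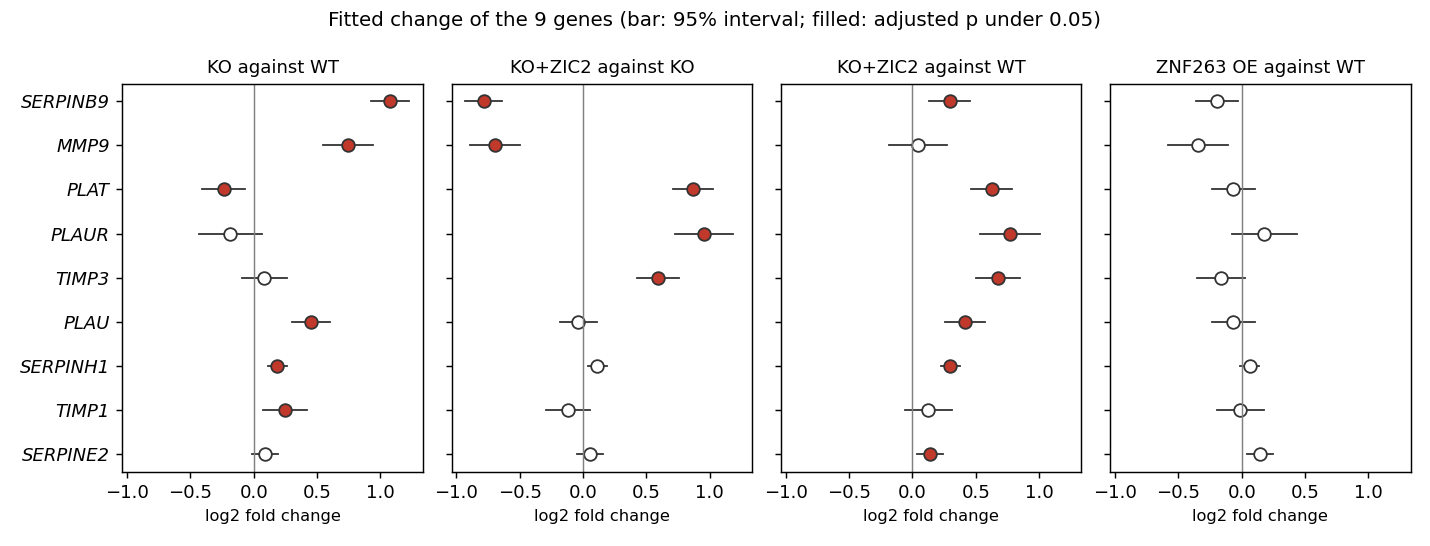
Log2 fold change of the 9 genes in 4 comparisons, with points for the edgeR estimate, bars for its 95% interval and filled points for an adjusted p under 0.05. SERPINB9 and MMP9 lie right of 0 in KO against WT and left of 0 in KO+ZIC2 against KO, PLAT, PLAUR and TIMP3 lie right of 0 in KO+ZIC2 against KO, and no point is filled for ZNF263 OE against WT.

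In OE against WT, which asks what extra ZNF263 does, none of the 9 genes was called, and 0.764% of all tested genes were, 0.317% higher and 0.447% lower. By edgeR 3 of the 9 had an unadjusted p under 0.05, as had 1630 of all 15437 tested genes, and DESeq2 called 0 of the 9. MMP9 had a log2 difference of -0.35 (95% interval -0.58 to -0.11, adjusted p = 0.211), SERPINB9 had a difference of -0.19 (-0.36 to -0.03, 0.380) and SERPINE2 of 0.14 (0.04 to 0.25, 0.248). SERPINE2 was at 69.1, 68.8 and 74.0 CPM in OE. The libraries of these 3 genes did not overlap between OE and WT, as for 7 of the 9 genes and 19.4% of all tested genes. PLAT, at 12.5, 12.9 and 13.5 CPM in OE, lay just below its WT libraries, SERPINH1, at 527, 540 and 532 CPM, lay just above its own, and TIMP1, at 22.2, 25.4 and 27.2 CPM, overlapped WT. The intervals of the other 6 all included 0, the widest being that of PLAUR from -0.07 to 0.43.

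OE and KO were also compared directly, since both are set against the same WT libraries. SERPINB9 was lower in OE by 1.27 (SE 0.07, adjusted p = 4.11e-12), MMP9 by 1.09 (SE 0.10, adjusted p = 1.22e-08) and PLAU by 0.52 (adjusted p = 9.25e-06) on the log2 scale. These 3 calls held under every alternative run. In all, 1 gene was higher and 6 were lower of the 9, beside 36.5% of all tested genes called, 17.5% higher and 19.0% lower.

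The remaining calls of this comparison were smaller: SERPINH1 at -0.12 (adjusted p = 0.0102), TIMP1 at -0.26 (0.0199), TIMP3 at -0.24 (0.0317) and PLAUR at 0.36 (0.0188). With GC and length correction SERPINH1 (-0.03, adjusted p = 0.342) and TIMP1 (-0.09, 0.354) were not called, and with DESeq2 PLAUR (0.0547) and TIMP3 (0.0970) were not. Single libraries also ended the calls of PLAUR (KO replicate 3, OE replicate 1 or 2), TIMP1 (OE replicate 1) and TIMP3 (KO replicate 1 or 3, OE replicate 1 or 2), with adjusted p of at most 0.0813, 0.143 and 0.123.

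Other genes of these pathways came from 6 lists written with earlier results of these data known. The lists hold 99 genes besides the 9, of which 95 were in the table and 58 were tested. In KO against WT 26 of the 58 were higher and 7 lower (56.9% called, beside 38.6% of all tested genes; median log2 fold change 0.16). In KO+ZIC2 against KO 7 were higher and 6 lower (22.4%, beside 8.34%; median -0.01), a split of 8 higher and 11 lower with GC and length correction. In OE against WT 0 were higher and 3 lower (5.17%, beside 0.764%), and in KO+ZIC2 against WT 30 were higher and 5 lower (60.3%, beside 37.6%).

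In the plasminogen system, 4 of 9 tested genes other than the 9 rose in KO and 0 fell, a share of 44.4% that is near the 38.6% of all tested genes. ANXA2 and S100A10 form a surface complex that binds plasminogen and tPA. ANXA2 rose in KO by 1.18 (adjusted p = 1.03e-13) and S100A10 by 1.10 (adjusted p = 7.35e-10), and both fell in KO+ZIC2 against KO, by 0.23 (adjusted p = 0.00321) and 0.30 (adjusted p = 0.0160). The ZIC2 call of S100A10 was lost without KO+ZIC2 replicate 3 (adjusted p = 0.101). ANXA2 has processed copies in the genome, so its counts from uniquely aligned reads are uncertain. ENO1, a glycolytic enzyme that also binds plasminogen at the surface, rose in KO by 0.24 (adjusted p = 2.14e-05). PLG, the gene of plasminogen itself, had too few counts to be tested.

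Of 10 tested MMP genes other than MMP9, 4 rose and 2 fell in KO, beside 20.0% and 18.5% of all tested genes. In KO+ZIC2 against KO 4 rose and 1 fell, beside 4.99% and 3.35% of all tested genes. With GC and length correction these splits were 3 and 3, and 4 and 2. Over all genes that correction gave 2397 higher and 2092 lower in KO, and 935 higher and 1145 lower in KO+ZIC2 against KO. MMP17, a GPI-anchored MMP, fell in KO by 0.97 (adjusted p = 3.58e-10) and rose with ZIC2 by 0.39 (adjusted p = 0.00107), opposite to MMP9 in both. MMP24 went the way of MMP9, at 0.64 (adjusted p = 1.25e-08) and -0.20 (adjusted p = 0.0279), and MMP15 rose in KO by 0.51 (adjusted p = 8.62e-09). With ZIC2, MMP25 rose by 0.42 (adjusted p = 2.70e-05) and MMP14, the membrane protease that activates MMP2, by 0.26 (adjusted p = 0.000322), and MMP2 was above WT in KO+ZIC2 by 0.34 (adjusted p = 4.58e-06). In OE against WT edgeR and DESeq2 called 0 of these 10 genes, with 3 at an unadjusted p under 0.05. Of all 15437 tested genes, edgeR called 0.764% there, and 1630 had an unadjusted p under 0.05.

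Among MMP inhibitors and docking proteins other than TIMP1 and TIMP3, 4 of 5 tested rose in KO and 0 fell. Of all tested genes 38.6% were called there, 20.0% higher and 18.5% lower. TIMP4 rose by 0.52 (adjusted p = 1.56e-06), the MMP inducer BSG by 0.37 (adjusted p = 3.37e-07), TIMP2 by 0.20 (adjusted p = 0.000930) and CD44, a surface docking site of MMP9, by 0.28 (adjusted p = 0.0244). In KO+ZIC2 against KO, where edgeR called 8.34% of all tested genes, edgeR and DESeq2 called 0 of the 5. Of the 5, 0 had an unadjusted p under 0.05, beside 3079 of all 15437 tested genes. TIMP3 was therefore the member of this list that was called there.

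**Figure D4:**
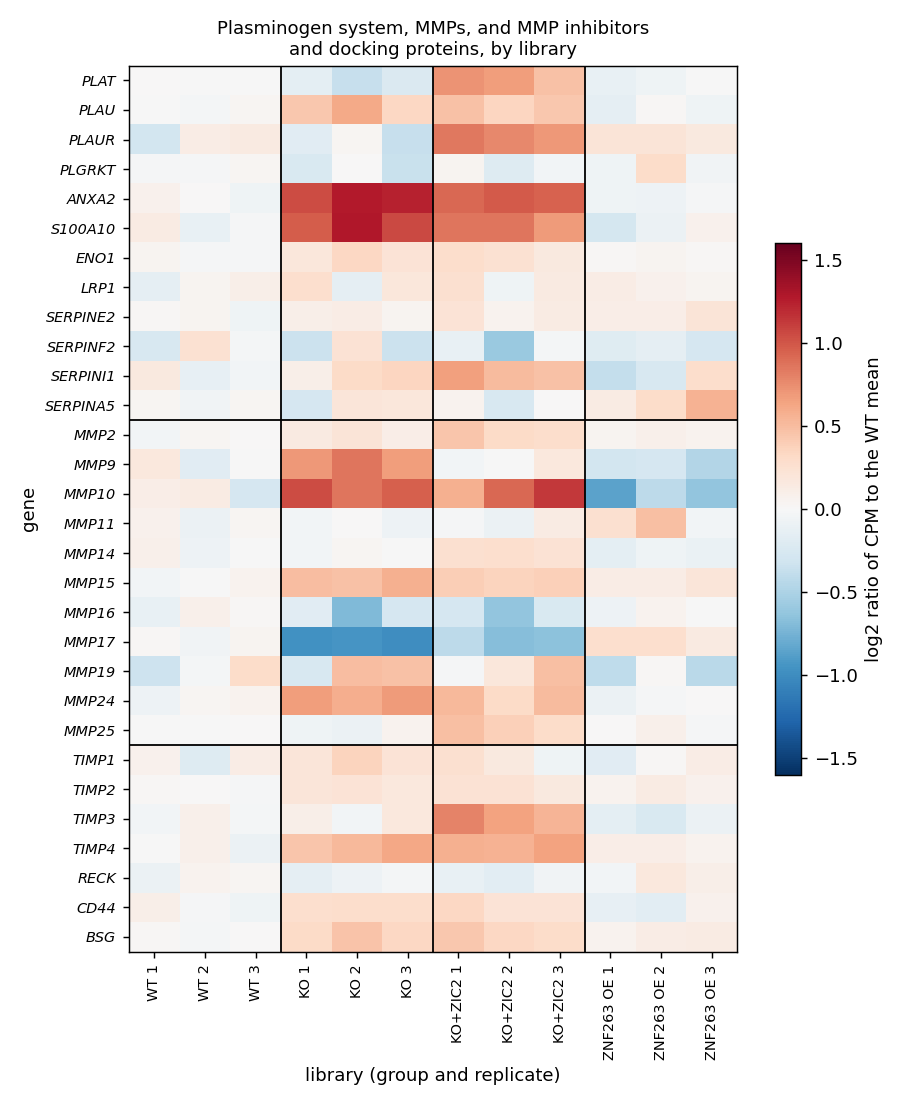
Log2 ratio of CPM to the WT mean in each of the 12 libraries (columns) for tested genes (rows, 1 gene not shown) of the plasminogen system, the MMPs, and the MMP inhibitors and docking proteins, with red above and blue below the WT mean. ANXA2 and S100A10 are red in all KO and KO+ZIC2 libraries, MMP17 is blue in KO, and PLAT, PLAUR and TIMP3 are red in KO+ZIC2.

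In the wider serpin family, 4 of 12 tested genes other than the listed serpins rose in KO and 1 fell, a share of 41.7% that is near the 38.6% of all tested genes. SERPINB6, an intracellular serpin, was at 0.43 (adjusted p = 0.000742), and SERPINB4 at 1.09 (adjusted p = 0.000174), whose near-identical neighbour SERPINB3 makes its unique-read count uncertain. SERPINF1, the antiangiogenic factor PEDF, fell by 0.20 (adjusted p = 0.00940). SERPINI1, or neuroserpin, an inhibitor of tPA, was above WT in KO+ZIC2 by 0.56 (adjusted p = 0.00262).

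The genes whose levels over the 12 libraries were most like each member were found by Pearson correlation of log2 CPM among 10667 genes, and since the 12 points fall into 4 groups the values mostly reflect group differences. SERPINB9 was nearest to SIAH2 (r = 0.99), MRS2 (0.99) and FGFRL1 (0.98), and MMP9 to ITM2A (0.97), MRS2 (0.96) and SOX4 (0.96). MRS2, named for both, was at 134 ± 4.74 CPM in WT, 181 ± 3.69 in KO, 143 ± 9.91 in KO+ZIC2 and 123 ± 1.47 in OE (SD, n = 3). Between members the highest correlation was that of SERPINB9 and MMP9 (r = 0.95).

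PLAT was nearest to GRM4, CPXM1 and EFNB1 (r = 0.97 each), PLAUR to PPP1R1B (0.95), TNFRSF1A (0.94) and EFNB1 (0.94), and TIMP3 to TRIM62 (0.97), NGFR (0.97) and MICAL2 (0.96). EFNB1, named for both PLAT and PLAUR, was at 12.2 ± 0.70 CPM in WT, 7.52 ± 0.55 in KO, 42.4 ± 5.9 in KO+ZIC2 and 13.6 ± 0.63 in OE. PPP1R1B was at 3.97 ± 0.43 CPM in KO and 34.1 ± 3.2 in KO+ZIC2. PLAT correlated at 0.87 with both PLAUR and TIMP3.

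PLAU was nearest to MBD3, EBP and HN1 (r = 0.98 each), and SERPINH1 to ZMYND19 (0.99), SLC1A5 (0.98) and TRAFD1 (0.98). TIMP1 was nearest to CIB1 (0.90), MOCS3 (0.90) and ATP5SL (0.89), and SERPINE2 to ADAMTS16 (0.91), PYGB (0.83) and ACOX3 (0.83). TIMP1 and SERPINE2 had the lowest values of likeness among the 9 genes.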

How the data were processed

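Read counts per gene of the 12 libraries were used as the authors deposited them, with no normalization. They are of uniquely aligned reads, per the file headers. The submitters' processing notes name STAR, featureCounts, DESeq2 and hg19 and give no version. Per the labels' protocols, libraries were made from poly(A) RNA with a NEBNext Ultra II RNA kit, which does not mark strand, so opposite-strand genes that share exons cannot be separated.

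Genes passing edgeR's default filter (filterByExpr) were tested in R 4.3.3 with the quasi-likelihood test of edgeR 4.0.16, after TMM scaling. All 12 libraries were fitted with the group as the only term, leaving 8 residual degrees of freedom and a common biological coefficient of variation of 0.0397. Benjamini-Hochberg adjustment ran over the 15437 tested genes within each of 5 comparisons, 3 of which share the WT and 3 the KO libraries. Log2 fold changes have standard errors (SE) and 95% intervals from this fit. The fit was tested on simulated data. Within groups no pair of libraries held the same reads. Chi-square between pairs was 1.38 to 1.48 per gene in OE, 1.43 to 2.83 in WT, 3.00 to 3.14 in KO+ZIC2 and 3.49 to 10.7 in KO. These values do not tell separate cultures from technical repeats. CPM and RPKM were computed from the counts, RPKM with the exon length in the table. DESeq2 1.42.0, other scaling factors, no filter, fits of 6 libraries, a replicate block, a GC and length correction (95.2% of tested genes had a GC content) and the omission of each library were alternatives.

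The members, lists, motifs and tests were chosen with earlier results of these data known. All 9 members are named. From each list the text names up to 3 called genes per comparison with the smallest adjusted p, some not printed, and for each member the 3 most correlated genes at a mean of 5 CPM or more. PLG, ENO1, COL1A1, COL3A1, LUM, DCN, THY1, SOX17, GATA4, GATA6 and the overlapping genes were named after their values were seen. So were the single endothelial markers and the KO values of CD44 and PPIB. The values of 1 list gene are not reported here, although it stays in the counts of its lists.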

Additional observations from a re-analysis of the deposited data

How the results depend on the processing

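The number of genes called in OE against WT depended on the processing: 118 as reported, 220 with no filter on low counts, 431 with only the 6 libraries compared, 250 with GC and length correction, 249 with the replicate block and that correction, and 50 to 262 when 1 library was left out, the highest without KO replicate 2. In KO+ZIC2 against KO 1288 genes were called, 2080 with GC and length correction, 2048 with the replicate block and that correction, and 842 to 1476 when 1 library was left out. Omitting 1 library gave 4782 to 5968 in KO against WT, 4549 to 6384 in KO+ZIC2 against WT and 4542 to 5681 in OE against KO.

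Log2 differences that changed sign were all of genes not called. With GC and length correction, MMP9 in KO+ZIC2 against WT was -0.15, TIMP1 there -0.090 and SERPINE2 in OE against KO -0.012, and with the replicate block added -0.15, -0.087 and -0.0094. Leaving out 1 library gave -0.043 to 0.12 for MMP9 in KO+ZIC2 against WT, -0.10 to 0.066 for TIMP1 in OE against WT and -0.089 to 0.028 for PLAU in KO+ZIC2 against KO. The cause was not tested.

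Replicate numbers did not pair the libraries: deviations of libraries with the same number correlated at -0.11 to 0.11 over 18 pairs, and 4 of 12 libraries correlated best with one of their own number. With the replicate block 5845, 108, 1244, 5691 and 5509 genes were called in KO against WT, OE against WT, KO+ZIC2 against KO, KO+ZIC2 against WT and OE against KO, and the block alone changed no call of the 9 genes. DESeq2 called 4951, 104, 916, 4827 and 4565 genes in the same order. PLAUR rested on the fewest reads, with 84, 122 and 139 counts in the 3 WT libraries.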

Other observations

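The collagen folding list, which holds SERPINH1, had 10 other tested genes, of which 6 rose and 0 fell in KO against WT (60.0%, beside 38.6% of all tested genes), with a median log2 fold change of 0.24. PLOD3, a lysyl hydroxylase, rose by 0.45 (edgeR adjusted p = 9.04e-07), P4HB, the shared subunit of prolyl 4-hydroxylase, by 0.26 (adjusted p = 2.63e-06), PPIB, a prolyl isomerase, by 0.27 (adjusted p = 4.75e-05) and CRTAP, its partner in collagen modification, by 0.24 (adjusted p = 3.34e-05). In KO+ZIC2 against KO, where edgeR called 8.34% of all tested genes, edgeR and DESeq2 called 0 of the 10. Of the 10, 2 had an unadjusted p under 0.05, beside 3079 of all 15437 tested genes. With GC and length correction, 7 rose in KO against WT, and 3 fell in KO+ZIC2 against KO.

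Of 16 tested ADAM and ADAMTS genes, which encode related surface and secreted metalloproteinases, 5 rose and 4 fell in KO, 56.2% beside 38.6% of all tested genes, and with GC and length correction 5 rose and 1 fell. ADAM19 rose by 0.80 (edgeR adjusted p = 6.55e-11) and ADAMTS1 by 0.48 (adjusted p = 8.27e-07), while ADAM23, an adhesion protein without protease activity, fell by 0.54 (adjusted p = 3.08e-07). In OE against WT ADAM19 was at -0.26 (adjusted p = 0.0247) and ADAMTS1 at -0.31 (adjusted p = 0.0112), and both calls were lost when single libraries were left out: ADAMTS1 without WT replicate 3 or OE replicate 2 or 3 (adjusted p at most 0.124), ADAM19 without WT replicate 2 or 3 or any OE library (at most 0.159). In KO+ZIC2 against KO 2 rose and 3 fell, 31.25% beside 8.34% of all tested genes. DESeq2 called 2 of the 16 in this comparison, and 916 genes in all. By edgeR ADAM33 rose by 1.10 (adjusted p = 0.00135), while ADAM19 fell by 0.20 (adjusted p = 0.0125) and ADAMTS5 by 0.32 (adjusted p = 0.0360). The level of ADAM33 was low, at 1.01 ± 0.280 CPM in KO and 2.26 ± 0.402 in KO+ZIC2 (SD, n = 3). The call of ADAM19 was lost without KO+ZIC2 replicate 2 (0.0990), and that of ADAMTS5 with DESeq2 (0.164), with only the 6 libraries compared (0.0734) and without KO replicate 3 or KO+ZIC2 replicate 1 or 2 (at most 0.173).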
